A study of Mus musculus with 6 samples.

Results

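The genes described here are 10 of the 24346 gene symbols measured in mouse kidney, taken by symbol as members of a pathway, with no cutoff on a measured value. They are the vascular endothelial growth factor (VEGF) ligands Vegfa, Vegfb, Vegfc and Figf, the receptors Kdr, Flt1 and Flt4, the co-receptors Nrp1 and Nrp2, and Tek, the receptor of the angiopoietins. Figf is the older symbol of Vegfd. RNA came from kidneys of C57BL/6 mice after the surgery that the labels call IVCC (3 libraries) or after Sham surgery (3 libraries). The series concerns congestion of the kidney in mice, and the comparison asks how transcript levels differ once this surgery has been done. What IVCC stands for is not stated in the labels, which also give no sex, age, time after surgery or region of the kidney. They do not say whether libraries came from separate or pooled animals, so p-values measure only the spread between these libraries.

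VEGF-A made by epithelial cells acts on the receptors of neighbouring endothelial cells, and in the kidney podocytes of the glomerulus and tubule cells are its main sources. Kdr (VEGFR2) passes on most of its signal, whereas Flt1 (VEGFR1) binds VEGF-A tightly, signals weakly and, in a secreted form, traps the ligand. VEGF-B binds Flt1, and VEGF-C and VEGF-D act mainly on Flt4 (VEGFR3), the receptor of lymphatic growth, which some blood capillaries also carry. Neuropilins hold these ligands next to the receptors and also bind semaphorins, and Tek (TIE2) answers to angiopoietins and keeps vessels stable.

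Of the 10 genes, 9 had a higher fitted level in IVCC kidneys and 1, Vegfb, a lower one, whereas 48.4% of all tested genes had a higher fitted level in IVCC. None of the 10 differed beyond the adjusted threshold, and neither did any of the 12090 genes tested (0%; limma, Benjamini-Hochberg adjustment over all tested genes, adjusted p under 0.05). Nrp2 was the only one of the 10 with an unadjusted limma p under 0.05, a level that 3.56% of all tested genes reached, and its p was above 0.05 without IVCC replicate 1, IVCC replicate 2 or Sham replicate 3 (0.0706, 0.117 and 0.0963). It was also the only one whose IVCC values all lay above its Sham values, as for 4.09% of all tested genes, and none of the 10 had all IVCC values below all Sham values, as 4.22% had (8.31% in either direction). The median log2 fold change (IVCC minus Sham) of the 10 genes was 0.24, and that of all tested genes was -0.01. As a ratio of means, IVCC over Sham, Nrp2 stood at 1.69 and Kdr at 1.52. Kdr had the largest fold on the log2(FPKM + 1) scale, which damps that of lower genes, but its log2 fold change was 0.19 without the library Sham replicate 3, against 0.59 with all libraries. These are bulk libraries, in which more cells of a type and more RNA per cell cannot be told apart.

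The libraries differ in ways that touch these genes. FPKM (fragments per kilobase of a transcript, relative to all mapped fragments) hold no read totals, but the smallest steps among low values correspond to a nominal 8030000 to 8990000 reads per IVCC library and 6040000 to 7230000 per Sham library. The proximal tubule gene Kap took at most 13.1% of the FPKM sum in an IVCC library and at most 16.6% in a Sham library. Markers of nephron cells were abundant in every library. Slc34a1, a phosphate transporter of the proximal tubule, averaged 2465 ± 102 FPKM in IVCC kidneys and 2184 ± 66.2 FPKM in Sham kidneys (SD, n = 3 each). Umod, which encodes uromodulin of the thick ascending limb, averaged 1123 ± 55.7 and 1216 ± 441 FPKM in IVCC kidneys and Sham.

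The order of the levels, by the mean over all 6 libraries, was Vegfa, Vegfb, Nrp1, Kdr, Tek, Figf, Flt1, Nrp2, Vegfc and Flt4. Steps between neighbours larger than the spread over libraries were those from Vegfb to Nrp1, at least 46.9 FPKM against at most 18.9 FPKM, and from Nrp1 to Kdr, at least 12.9 against at most 10.1 FPKM. The other neighbours overlapped in range, although Flt1 lay above Nrp2 in 6 of 6 libraries.

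**Figure D1:**
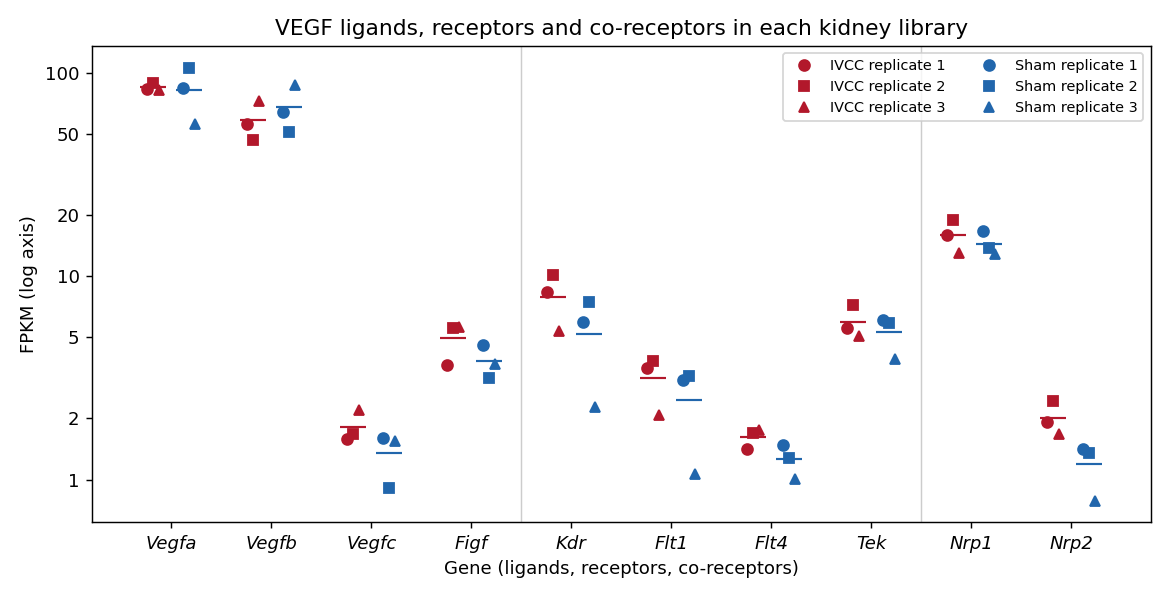
FPKM of each gene in each library on a log axis, with IVCC (red) left of Sham (blue), the marker shape giving the replicate and the short line the mean of 3 libraries. The 2 groups overlap for every gene but Nrp2, and Sham replicate 3 is the lowest of the 6 libraries for 7 genes.

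The sequences just upstream of the annotated starts are given for 4 genes on which the comparison turns: Kdr, with the largest log2 fold change, Flt1 and Vegfa, which were low in the same library, and Nrp2, the gene without overlap. Each is 250 bases of the gene's own strand, from RefSeq on GRCm38.p6. Capitals mark GGAAG or its complement CTTCC, a core of the sites bound by ETS factors, which are known to act on endothelial genes. Kdr lies at chr5:75978456-75978705 (minus strand), Flt1 at chr5:147726012-147726261 (minus strand), Vegfa at chr17:46032378-46032627 (minus strand) and Nrp2 at chr1:62703067-62703316 (plus strand).
Kdr: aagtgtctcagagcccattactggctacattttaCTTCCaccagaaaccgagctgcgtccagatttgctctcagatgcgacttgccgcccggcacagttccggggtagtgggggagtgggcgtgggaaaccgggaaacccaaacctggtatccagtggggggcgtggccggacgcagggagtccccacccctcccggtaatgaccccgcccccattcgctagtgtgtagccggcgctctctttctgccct
Flt1: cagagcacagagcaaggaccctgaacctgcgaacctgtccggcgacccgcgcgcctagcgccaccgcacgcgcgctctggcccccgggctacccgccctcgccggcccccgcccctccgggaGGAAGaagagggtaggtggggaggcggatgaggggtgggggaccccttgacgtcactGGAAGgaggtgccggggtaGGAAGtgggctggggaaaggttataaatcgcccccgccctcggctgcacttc
Vegfa: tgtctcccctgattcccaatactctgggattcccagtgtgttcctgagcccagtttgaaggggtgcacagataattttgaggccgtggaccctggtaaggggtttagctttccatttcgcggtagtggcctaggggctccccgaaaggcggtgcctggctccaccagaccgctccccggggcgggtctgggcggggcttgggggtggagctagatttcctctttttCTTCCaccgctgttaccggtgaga
Nrp2: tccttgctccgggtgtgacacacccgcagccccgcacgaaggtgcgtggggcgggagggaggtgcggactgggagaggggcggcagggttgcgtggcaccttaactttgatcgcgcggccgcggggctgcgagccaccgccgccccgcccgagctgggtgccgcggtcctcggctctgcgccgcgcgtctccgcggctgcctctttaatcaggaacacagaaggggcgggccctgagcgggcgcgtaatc
The core stood once in the Kdr window, 3 times in that of Flt1, once in that of Vegfa and 0 times in that of Nrp2. It occurs at least once in 64.1% of 32851 promoter windows of the same length, searched on both strands. The Sp1 box GGGCGG, searched on both strands, occurred 2 times upstream of Kdr, 3 times of Flt1, 2 times of Vegfa and 5 times of Nrp2. At least 1 match stood in 32.7% of all windows. The GC content was 61.6% in the Kdr window, 70.4% in that of Flt1, 59.2% in that of Vegfa and 72.4% in that of Nrp2. Windows of matched GC content were not compared. The hypoxia response core ACGTG was in none of these 4 windows, against 16.6% of all windows on both strands. Sequence further upstream than 250 bases was not searched, so sites there are not covered. It occurred once upstream of a second Vegfa start that RefSeq places inside the gene, at chr17:46025164-46025413. The bases following that start were not found in any GENCODE transcript of Vegfa, so this window may not be a promoter.

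Among the ligands, Vegfa (chromosome 17, 46016993 to 46032369, minus strand, GRCm38) was the most abundant. It stood at 83.2, 89.3 and 82.4 FPKM in the IVCC libraries, against 84.1, 106 and 55.9 FPKM in the Sham libraries. The IVCC values lay close together, inside the range of the Sham values, which held both the highest and the lowest of the 6. The mean was 85.0 ± 3.77 FPKM in IVCC kidneys and 82.1 ± 25.2 FPKM in Sham kidneys (SD, n = 3 each). In limma the log2 fold change was 0.10, with a 95% interval from -0.42 to 0.61 (limma adjusted p = 0.947). Its sign depended on Sham replicate 3, without which the log2 fold change was -0.15. Vegfa has 8 annotated transcripts whose products differ in binding to matrix, and the deposited values do not separate them.

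Vegfb (chromosome 19, 6982473 to 6987651, minus strand), whose product acts through Flt1 and is known for its role in fatty acid handling by vessels, ran the other way. It had 56.4, 46.9 and 72.4 FPKM in IVCC kidneys, against 64.4, 51.4 and 87.7 FPKM in Sham kidneys. In both groups the library numbered 2 was lowest and the library numbered 3 highest, and the groups overlapped. Its log2 fold change was -0.20, with a 95% interval from -0.73 to 0.33 (limma adjusted p = 0.924), and was 0.002 without Sham replicate 3.

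Both lymphangiogenic ligands averaged higher in IVCC kidneys, within the spread between libraries. Figf (X chromosome, 164373378 to 164402650, plus strand) stood at 3.66, 5.58 and 5.63 FPKM in IVCC kidneys and at 4.59, 3.17 and 3.72 FPKM in Sham kidneys. IVCC replicates 2 and 3 were above every Sham library and IVCC replicate 1 was not. Its log2 fold change was 0.29, with a 95% interval from -0.14 to 0.73 (limma adjusted p = 0.924). Vegfc (chromosome 8, 54077606 to 54187096, plus strand) had 1.59, 1.67 and 2.20 FPKM in IVCC kidneys, against 1.61, 0.905 and 1.55 FPKM in Sham kidneys. Sham replicate 2 was the lowest for both genes. For Vegfc the log2 fold change was 0.27, with a 95% interval from -0.15 to 0.69, and 0.12 without Sham replicate 2. Vegfc rested on few reads, a nominal 8.5 to 25.8 per library, so that counting error alone is large. These nominal reads assume its median transcript length of 1502 bases, and its longest transcript, of 2449 bases, would give more.

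The 4 receptors all had higher means in IVCC. Kdr (chromosome 5, 75932827 to 75978458, minus strand), the main signalling receptor of VEGF-A, stood at 8.37, 10.1 and 5.37 FPKM in IVCC kidneys, against 5.95, 7.43 and 2.29 FPKM in Sham kidneys. The groups overlapped, since IVCC replicate 3 lay below Sham replicates 1 and 2. Within each group the order was the same, with replicate 2 highest and replicate 3 lowest. The mean was 7.95 ± 2.40 FPKM in IVCC kidneys and 5.22 ± 2.65 FPKM in Sham kidneys (SD, n = 3 each). In the fit the log2 fold change was 0.59 with a standard error of 0.36 and a 95% interval from -0.25 to 1.44 (limma adjusted p = 0.924).

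Flt1 (chromosome 5, 147561604 to 147726011, minus strand), the decoy-like receptor, followed the same order of libraries as Kdr. It had 3.54, 3.83 and 2.09 FPKM in IVCC kidneys and 3.08, 3.24 and 1.07 FPKM in Sham kidneys. Only IVCC replicates 1 and 2 lay above all of the Sham values. The fitted log2 fold change was 0.31, with a 95% interval from -0.41 to 1.02 (limma adjusted p = 0.924), and was -0.03 without Sham replicate 3. Membrane-bound and secreted forms of Flt1 are not separated in gene-level values.

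Flt4 (chromosome 11, 49609263 to 49652739, plus strand), the receptor of VEGF-C and VEGF-D, had the lowest mean over all 6 libraries. It had 1.41, 1.70 and 1.75 FPKM in IVCC kidneys, against 1.49, 1.27 and 1.01 FPKM in Sham kidneys. IVCC replicate 1 lay below Sham replicate 1, and the other IVCC libraries lay above all Sham values. The fitted log2 fold change was 0.22, with a 95% interval from -0.13 to 0.57 (limma adjusted p = 0.924), and it varied less among libraries than Kdr. Its SD was 11.2% of the mean in IVCC and 19.1% in Sham, whereas that of Kdr was 30.2% and 50.7%.

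Tek (chromosome 4, 94739289 to 94874976, plus strand) had 5.56, 7.25 and 5.08 FPKM in IVCC kidneys, against 6.10, 5.87 and 3.92 FPKM in Sham kidneys. IVCC replicate 2 was the highest of all and Sham replicate 3 the lowest, while the other Sham libraries both lay above the other IVCC libraries. Its log2 fold change was 0.15, with a 95% interval from -0.28 to 0.59 (limma adjusted p = 0.924), and was -0.02 without Sham replicate 3.

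Of the co-receptors, Nrp1 (chromosome 8, 128358604 to 128503363, plus strand) was the more abundant, at 15.9, 18.9 and 12.985 FPKM in IVCC kidneys and 16.6, 13.8 and 12.9 FPKM in Sham kidneys. The groups overlapped, and the log2 fold change of 0.13 had a 95% interval from -0.25 to 0.50 (limma adjusted p = 0.924). Nrp1 serves arterial and capillary endothelium and also podocytes and other cells. Nrp2 (chromosome 1, 62703285 to 62818695, plus strand), the co-receptor of veins and lymphatic vessels, had 1.91, 2.42 and 1.68 FPKM in IVCC kidneys, against 1.42, 1.36 and 0.788 FPKM in Sham kidneys. Its lowest IVCC library lay above its highest Sham library. The mean was 2.004 ± 0.381 FPKM in IVCC kidneys and 1.19 ± 0.347 FPKM in Sham kidneys (SD, n = 3 each). The log2 fold change was 0.46 with a standard error of 0.18 and a 95% interval from 0.04 to 0.88. Its unadjusted limma p of 0.0346 ranked 305 of 12090 genes and did not pass adjustment (adjusted p = 0.924).

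**Figure D2:**
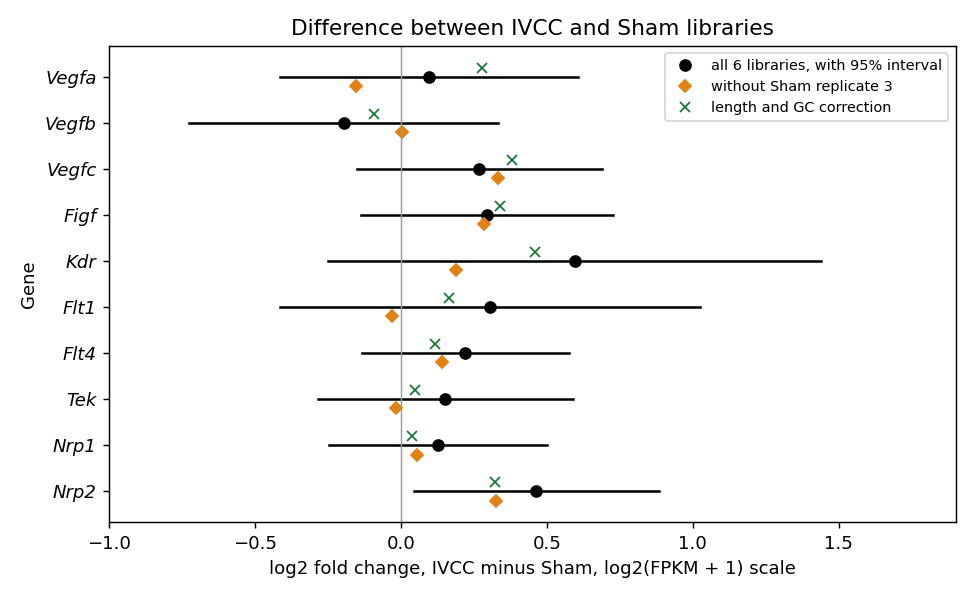
Log2 fold change (IVCC minus Sham, on the log2(FPKM + 1) scale) of each gene, with limma's 95% interval as a line. Diamonds leave out Sham replicate 3 and crosses correct for length and GC content of transcripts; the interval crosses 0 for every gene but Nrp2, and without Sham replicate 3 the points of Vegfa, Flt1 and Tek lie below 0.

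Sham replicate 3 was the lowest of the 6 libraries for 7 of the 10 genes. Measured against each gene's mean over the 6 libraries, it lay at -1.11 on the log2 scale for Kdr, -0.83 for Flt1, -0.55 for Vegfa and -0.51 for Nrp2, but at 0.50 for Vegfb. IVCC replicate 2 was the highest of the 6 for 5 genes, at 0.65 for Kdr and 0.43 for Nrp2. All 6 of these genes with transcripts longer than 3500 bases (Kdr, Flt1, Flt4, Tek, Nrp1 and Nrp2) were lowest in Sham replicate 3. For Nrp1 the margin was small, 12.93 FPKM against 12.985 FPKM in IVCC replicate 3. The share of all tested genes, of that length or any, that were lowest in Sham replicate 3 was not counted.

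The same libraries stood apart by transcript length among all tested genes. For the 1439 genes with transcripts over 5 kb, the median deviation from the gene mean was 0.07, 0.23 and -0.10 in IVCC and -0.03, 0.08 and -0.24 in Sham, for replicates 1, 2 and 3 in turn. For the 1226 genes under 1 kb it was -0.14, -0.31 and 0.16 in IVCC and 0.02, -0.12 and 0.40 in Sham. Median annotated transcripts of Kdr and Flt1 are 5924 and 6594 bases long, and that of Vegfb is 1220 bases. After correcting for the length and GC content of transcripts, the log2 fold change was 0.46 for Kdr, 0.17 for Flt1, 0.32 for Nrp2, 0.12 for Flt4, 0.05 for Tek and 0.04 for Nrp1. The shorter transcripts of Vegfc and Figf came to 0.38 and 0.34, and Vegfb to -0.09. For Vegfc the median length used was 1502 bases, although its longest transcript has 2449 bases. Vegfa came to 0.28 with the median length of its annotated transcripts, 1143 bases, although its longest one has 3451 bases. The lowest adjusted p among the 10 genes was then 0.937 (limma). What part library quality had in these differences was not tested.

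**Figure D3:**
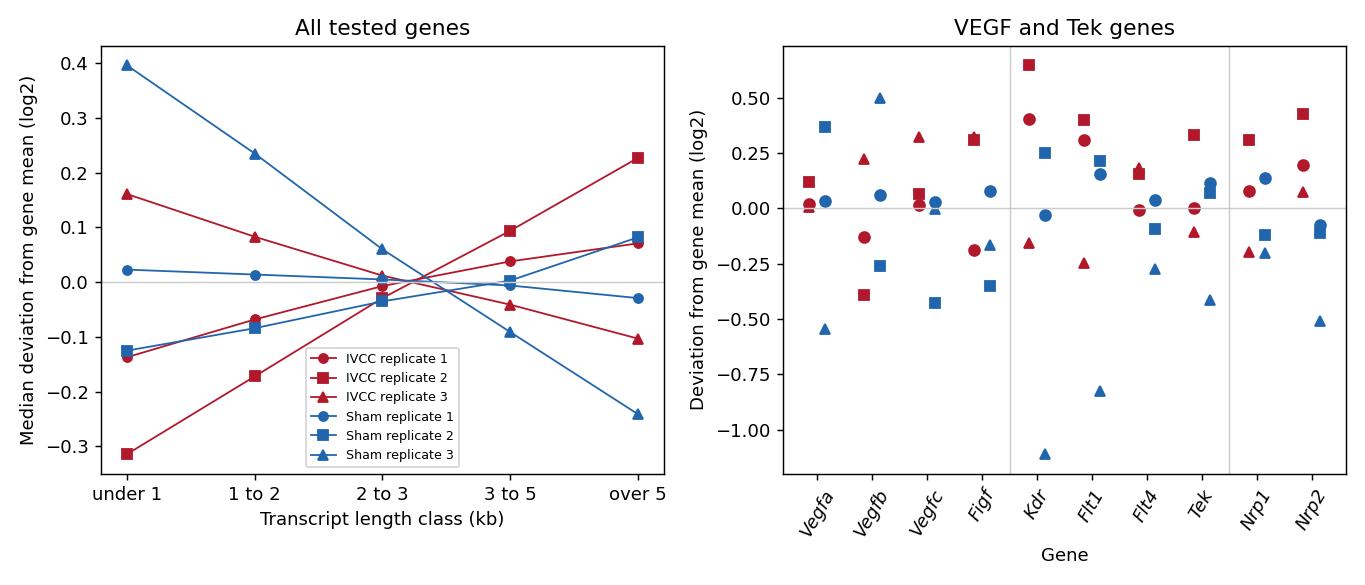
Left, the median log2 deviation from the gene mean in each library, by transcript length class in kb, over all tested genes; right, the same deviation for each of the 10 genes, with IVCC (red) left of Sham (blue). Sham replicate 3 lies at -0.24 for transcripts over 5 kb and at -1.11 for Kdr.

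Ratios within a library set related genes against each other, and 5 were formed after the values had been seen. Flt1 over Kdr was 0.422, 0.378 and 0.389 in IVCC, against 0.518, 0.436 and 0.467 in Sham, so that every IVCC ratio lay below every Sham ratio. Nrp2 over Nrp1 was 0.120, 0.128 and 0.129 in IVCC, against 0.0851, 0.0986 and 0.0609 in Sham, with every IVCC ratio above every Sham ratio. Both had p = 0.1 in a two-sided exact permutation test, the smallest that 3 against 3 libraries allow, and p = 0.25 after Benjamini-Hochberg adjustment over the 5 ratios. Median annotated transcripts have 5924 bases for Kdr and 6594 for Flt1, and 6446 bases for Nrp2 and 3597 for Nrp1. The ratios were formed from values without the length and GC correction, and the part of transcript length in them was not tested. The ratios of Vegfb over Vegfa, Figf over Vegfc, and Tek over the related receptor gene Tie1 overlapped between the groups.

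**Figure D4:**
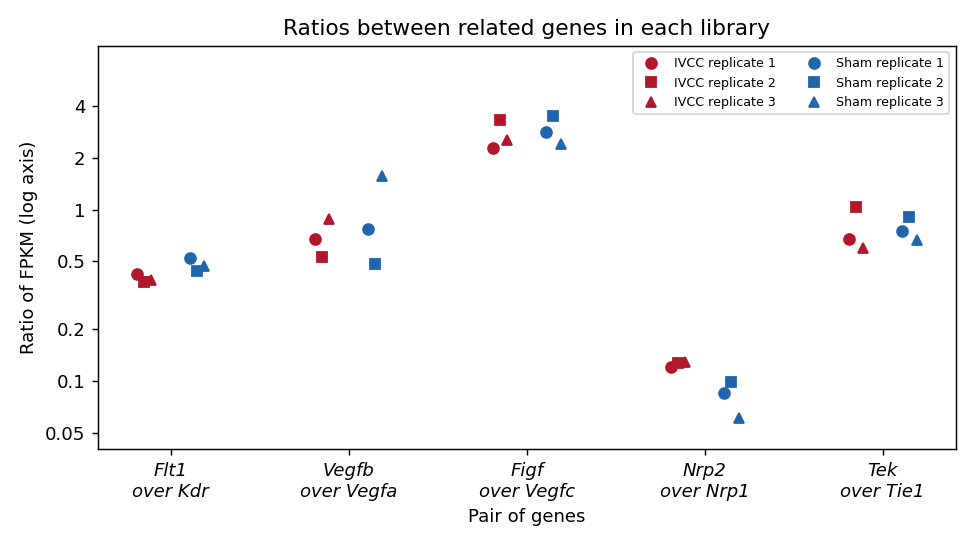
Ratio of FPKM of related genes in each library on a log axis, with IVCC (red) left of Sham (blue). The IVCC ratios of Flt1 over Kdr, at 0.378 to 0.422, all lie below the Sham ratios, and those of Nrp2 over Nrp1, at 0.120 to 0.129, all lie above them.

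The other ligands, receptors and partners of this system were 23 listed genes, of which 13 were expressed highly enough to be tested. All 13 had higher fitted levels in IVCC, with a median log2 fold change of 0.18, but 11 were higher and 2 lower after quantile normalization (median 0.13) or the length and GC correction (median 0.07). None passed the adjusted threshold, and the median was 0.10 without Sham replicate 3. The smallest p belonged to Sema3g, a semaphorin of endothelial cells that acts through neuropilins. It had 9.68, 12.1 and 7.91 FPKM in IVCC kidneys, against 5.58, 5.50 and 3.49 FPKM in Sham kidneys. The groups did not overlap, and the log2 fold change was 0.90 with a standard error of 0.20 (limma unadjusted p = 0.00251, adjusted p = 0.924). Ptprb, the vascular phosphatase that damps Tek and Kdr, averaged 3.33 ± 0.405 FPKM in IVCC kidneys and 2.47 ± 0.630 FPKM in Sham kidneys. Ptprj, another receptor phosphatase of endothelium, averaged 11.7 ± 2.10 and 9.67 ± 0.951 FPKM in IVCC kidneys and Sham.

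Tie1, the orphan partner of Tek, averaged 7.94 ± 0.775 FPKM in IVCC kidneys and 6.83 ± 1.15 FPKM in Sham kidneys. The Tek ligand genes, singled out after their values were seen, did not differ beyond the spread either. Angpt1, whose product activates Tek, had 3.73, 5.43 and 3.88 FPKM in IVCC kidneys, against 3.52, 3.92 and 3.59 FPKM in Sham kidneys, a log2 fold change of 0.18 (limma adjusted p = 0.924). Angpt2, which can block Tek, averaged 0.963 ± 0.283 and 0.910 ± 0.502 FPKM in IVCC kidneys and Sham, below the minimum for testing. Pgf, the Flt1 ligand placental growth factor, was also too low to test, at 0.102 to 0.331 FPKM in IVCC kidneys and 0 to 0.402 FPKM in Sham kidneys.

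Genes downstream of the receptors were taken from 3 lists. Of 43 tested signalling genes, 35 had higher and 8 lower fitted levels in IVCC, with a median log2 fold change of 0.06 (0.12 without Sham replicate 1, 0.04 without Sham replicate 2) and 0 past the adjusted threshold. The adaptor gene Gab1, with the smallest p of the list, averaged 8.55 ± 0.910 FPKM in IVCC kidneys and 6.87 ± 0.718 FPKM in Sham kidneys, without overlap. The kinase genes Pik3cb and Fyn came next, with log2 fold changes of 0.27 and 0.30. Of 14 tested genes known to respond to VEGF in endothelium, 12 were higher and 2 lower, with a median of 0.14 and 0 past the threshold, or 9 higher and 5 lower after quantile normalization (median 0.11) or the length and GC correction (median 0.15). With 1 library left out their median ranged from 0.07, when Sham replicate 3 was dropped, to 0.19. Dll4, the Notch ligand of tip cells, led both this list and that of the Notch genes. It had 3.65, 3.74 and 3.34 FPKM in IVCC kidneys, against 3.23, 2.38 and 2.20 FPKM in Sham kidneys, without overlap (limma unadjusted p = 0.0450, adjusted p = 0.924). The next were Mmp14, a membrane-bound protease, with a log2 fold change of 0.36, and Cd34, with 0.21. Cd34 and Plvap of this list are also counted among the markers of blood endothelium below, so the counts of these lists are not independent. Of 8 tested Notch genes 7 were higher and 1 lower, with a median of 0.14, but 4 were higher and 4 lower after quantile normalization or without Sham replicate 3 (median 0.08 for each), and the median was 0.04 after the length and GC correction. After Dll4 came Lfng, which modifies Notch, at 0.37, and the receptor gene Notch1, at 0.23.

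Hypoxia-inducible factors are known inducers of Vegfa. Of 8 tested genes of the oxygen-sensing machinery, 5 had higher and 3 lower fitted levels in IVCC (median log2 fold change 0.07), and 0 passed the adjusted threshold. After quantile normalization 7 were higher and 1 lower (median 0.06), and after the length and GC correction 3 were higher and 5 lower (median -0.01). The median was 0.01 without Sham replicate 2 and 0.13 without Sham replicate 1. Epas1, which encodes HIF-2α, had 22.5, 24.9 and 22.8 FPKM in IVCC kidneys, against 21.1, 22.2 and 16.8 FPKM in Sham kidneys, without overlap. Hif1a had a log2 fold change of 0.27 and the prolyl hydroxylase gene Egln3 one of -0.19. Of 16 tested hypoxia target genes, 6 were higher and 10 lower, with a median of -0.04 (0.05 after quantile normalization and 0.01 after the length and GC correction) and 0 past the threshold. The 3 with the smallest p were all lower in IVCC without overlap: Pfkfb4, Ankrd37 and Ddit4, with log2 fold changes of -0.32, -0.39 and -0.34 and unadjusted limma p-values of 0.0348, 0.0349 and 0.0420. Their adjusted limma p was 0.924. Of all tested genes, 4.22% were lower without overlap and 3.56% had an unadjusted p under 0.05. Adm, of the same list, had a log2 fold change of 0.27 and was higher without overlap, as 4.09% of all tested genes were.

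Markers of blood endothelium, the cells that carry Kdr, Flt1 and Tek, had higher fitted levels in IVCC for 15 of 18 tested genes, with a median log2 fold change of 0.19 and 0 past the threshold. Without IVCC replicate 3 they were 11 higher and 7 lower (median 0.09), and without Sham replicate 2 the median was 0.13. Pecam1 had 15.3, 15.6 and 15.8 FPKM in IVCC kidneys, against 12.8, 11.8 and 10.8 FPKM in Sham kidneys. The next by p were Ehd3, a gene of glomerular capillaries, with a log2 fold change of 0.48, and the junction gene Cdh5, with 0.42, both also without overlap. Emcn, Esam and Erg differed less, with log2 fold changes of 0.06, -0.03 and -0.01. The summed level of all 20 endothelial markers was 262 to 302 FPKM in IVCC kidneys and 228 to 260 FPKM in Sham kidneys. None of the 20 was at 0 in all libraries, and their part in the differences of the receptors was not tested. Per 100 FPKM of these markers, Kdr stood at 3.20, 3.85 and 1.78 in IVCC, against 2.29, 3.26 and 0.937 in Sham, and Nrp2 at 0.731, 0.923 and 0.555 in IVCC, against 0.544, 0.595 and 0.323 in Sham. On this scale the groups overlapped for all 10 genes. The sum is of raw FPKM, so its most abundant markers weigh most. These were Plvap, Emcn and Egfl7, averaging 58.3, 54.1 and 38.9 FPKM over all libraries. Plvap and Cd34 are also on the list of genes that respond to VEGF.

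Markers of lymphatic endothelium, the other site of Flt4 and Nrp2, were low. Only 2 of the 6 were high enough to test, and their summed level was 5.49 to 10.7 FPKM in IVCC kidneys and 5.63 to 11.2 FPKM in Sham kidneys. Prox1, the transcription factor of lymphatic identity, had 0.368, 0.386 and 0.303 FPKM in IVCC kidneys, against 0.072, 0.245 and 0.206 FPKM in Sham kidneys. Lyve1 was listed at 0 in 2 IVCC libraries and at no more than 0.344 FPKM in any library. Of the 2 tested, Pdpn, which podocytes also express, and the chemokine gene Ccl21a had log2 fold changes of 0.16 and -0.16.

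Podocyte markers were higher in IVCC for 10 of 10 genes, with a median log2 fold change of 0.50 and 0 past the adjusted threshold. Their summed level was 76.9 to 129 FPKM in IVCC kidneys and 65.7 to 68.1 FPKM in Sham kidneys, without overlap, while Vegfa, which podocytes make, overlapped between the groups. Synpo, whose product binds actin in foot processes, and the transcription factor gene Tcf21 had log2 fold changes of 0.70 and 0.47, both without overlap. Nphs1, which encodes nephrin of the slit diaphragm, had 4.40, 5.78 and 3.12 FPKM in IVCC kidneys, against 2.08, 2.12 and 3.21 FPKM in Sham kidneys. Markers of the thick ascending limb, another source of Vegfa, were split, 3 higher and 4 lower (median -0.02, or 0.14 after quantile normalization, -0.24 without Sham replicate 2 and 0.16 without Sham replicate 3). Ptger3 led them, lower in IVCC without overlap at a log2 fold change of -0.44, before Egf at 0.38 and Cldn10 at -0.19. Proximal tubule markers were 5 higher and 4 lower (median 0.06), 8 higher and 1 lower after quantile normalization (median 0.13), and 4 higher and 5 lower after the length and GC correction (median -0.10). The median was -0.003 without IVCC replicate 2. Their leading genes by p, the transporter genes Slc7a13, Slc5a2 and Slc5a12, had log2 fold changes of -0.35, 0.23 and 0.32. Distal and collecting duct markers were 7 higher and 2 lower (median 0.04, or 0.15 after quantile normalization), but 4 higher and 5 lower without IVCC replicate 1 or Sham replicate 2 (medians -0.02 and -0.04). Among them Scnn1g, Aqp2 and Slc12a3 had log2 fold changes of 0.26, -0.34 and 0.24.

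Mural and mesangial markers, of cells that make angiopoietin-1 in many vessels, were 5 higher and 4 lower (median 0.02, or -0.04 after quantile normalization), with a summed level of 45.6 to 70.5 FPKM in IVCC kidneys and 59.8 to 74.2 FPKM in Sham kidneys. The receptor gene Pdgfrb and the integrin gene Itga8 had log2 fold changes of 0.54 and 0.37, both without overlap, and the contractile gene Acta2 one of -0.50. Fibroblast markers were 4 higher and 1 lower, with a median log2 fold change of 0.51 and a summed level of 37.1 to 42.8 FPKM in IVCC kidneys and 31.9 to 35.3 FPKM in Sham kidneys. That median was 0.24 with a pseudocount of 5 and 0.67 after rescaling to TPM. It was 0.40 without Sham replicate 3 and also after the length and GC correction. The collagen genes Col3a1, Col1a2 and Col1a1 led them, at 0.47, 0.51 and 0.54. Dcn, the 1 lower gene, stood at -0.14, with overlap between the groups. It was the most abundant of the fibroblast markers, averaging 19.1 FPKM over all libraries, so it weighs most in their summed level. Macrophage markers, of cells that can carry Flt1 and Nrp1 and release Vegfc, were 6 higher and 1 lower, with a median of 0.40. That median was 0.16 with a pseudocount of 5, 0.56 after rescaling to TPM and 0.33 without Sham replicate 3. Their summed level was 90.5 to 112 FPKM in IVCC kidneys and 81.9 to 87.5 FPKM in Sham kidneys. The lysozyme gene Lyz2 and the complement genes C1qc and C1qb led them, at 0.72, 0.40 and 0.41. The 1 lower gene was the receptor gene Csf1r, at -0.37. No gene of these lists passed the adjusted threshold, and the part of these cell types in the results above was not tested.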

How the data were processed

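Per the labels' protocols, total kidney RNA went into stranded mRNA libraries, read from 1 end over 75 bp. The authors deposited FPKM values, with a column for each library in 1 table. The submitters' processing notes name, without roles, Cufflinks 2.2.1, TopHat2 2.0.13, SAMtools 0.1.19, Bowtie2 2.2.3 and the mm10 build. The annotation, the filters and any scaling of libraries are not given there. Libraries were grouped by their titles.

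Genes averaging 1 FPKM or more across the 6 libraries were tested (12090; the other 12256 were below). IVCC was compared with Sham on log2(FPKM + 1), a scale that understates the change of low genes, by a two-sided test in limma 3.58.1 under R 4.3.3 (eBayes with a mean-variance trend, Benjamini-Hochberg adjustment over all tested genes, threshold 0.05). No set test was run, and lists are described by counts and medians. The fit was tested on simulated data. The 10 genes were proposed as pathway members, and they, the lists and the ratios were chosen with earlier results of these data known, so that their selection is not independent of the data. Emcn, Esam, Erg, Adm, Csf1r, Plvap, Egfl7 and Dcn were picked from the lists after their values were seen. Besides these, the 3 tested genes of each list with the smallest p were named, plus a few fixed markers. Of the genes so taken, 1 is not reported here.

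Nominal depth assumes a fragment length of 200 bp. Between 81.2% and 86.3% of values below 0.1 FPKM, in genes with 1 transcript, were then whole reads within a tolerance of 0.1, too few for a count test. Coordinates and transcript lengths are from GENCODE M21 (GRCm38, the assembly mm10 names), with lengths as medians over basic transcripts. RefSeq promoter windows matched all 10 symbols. Alternatives were pseudocounts of 0.1 and 5, a minimum of 5 FPKM or none, 3 scalings, eBayes without the trend or robust, a replicate block and leaving out each library. A length and GC correction (a natural-spline fit per library), the same together with the block, and dropping both libraries numbered 3 were added after the data had been seen.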

Additional observations from a re-analysis of the deposited data

How the results depend on the processing

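None of the 10 genes passed the adjusted threshold under any of the 19 alternatives run, with adjusted limma p-values of 0.115 to 0.9999; the filter at 5 FPKM removed 5 of them. At an unadjusted p under 0.05, Nrp2 did not pass after rescaling to TPM (0.0578), without both libraries numbered 3 (0.0532), or without IVCC replicate 1 or 2 or Sham replicate 3 (0.0706 to 0.117). Kdr passed with the block, with the block and correction, without Sham replicate 2 and without both libraries numbered 3, Vegfb with the block, Figf without IVCC replicate 1, and Vegfc with the length and GC correction, with and without the block. Leaving out each library in turn gave log2 fold changes of 0.19 to 0.87 for Kdr, 0.33 to 0.54 for Nrp2, 0.19 to 0.46 for Figf, 0.12 to 0.35 for Vegfc, 0.14 to 0.29 for Flt4, 0.003 to 0.26 for Nrp1, -0.031 to 0.51 for Flt1, -0.016 to 0.25 for Tek, -0.15 to 0.30 for Vegfa and -0.38 to 0.002 for Vegfb. The changes of sign all came without Sham replicate 3, with 7 of the 10 genes then higher, and for Vegfa also without both libraries numbered 3 (-0.13); the cause was not tested. Kdr was lowest without Sham replicate 3 and highest without Sham replicate 2. The median of the 10 genes was 0.10 to 0.32 over the libraries left out.

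The number of genes called among all tested was 0 with all libraries, 0 to 4 with 1 library left out, 4 without both libraries numbered 3, and 1 with the replicate block and the length and GC correction together. With each group's mean removed, same-numbered libraries had correlations of -0.11, 0.34 and 0.32 for numbers 1, 2 and 3. IVCC replicate 2 with Sham replicate 3 gave -0.37, and IVCC replicate 3 with Sham replicate 2 gave -0.36. The labels state no pairing, so the main fit uses none. Whether same-numbered libraries share a batch was not tested. With the replicate block alone, 0 genes were called, 2388 had an unadjusted p under 0.05 against 431 without it, and Kdr had an adjusted p of 0.115, Nrp2 0.148 and Vegfb 0.186. That count of 431 was 1039 without IVCC replicate 3, 214 without IVCC replicate 1, 216 without IVCC replicate 2, 1057 without both libraries numbered 3, 1667 with the block and correction together, 780 with no filter and 282 with the filter at 5 FPKM. Rescaling to TPM put the median of all genes at 0.15 and that of the 10 genes at 0.37, and the 10 genes kept their signs under each of the 3 scalings. Depth limits Vegfc most, at a nominal 8.5 reads in its lowest library.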
